A study of Homo sapiens with 13 samples.

Results

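The cytosolic ribosomal protein genes encode the protein components of the 40S and 60S subunits, and they were taken here as the RefSeq protein-coding genes of the numbered autosomes whose symbol is RPL or RPS followed by a digit, with RPLP0, RPLP1, RPLP2 and RPSA, and without the RPS6K kinase genes. This gave 84 genes of the 19974 protein-coding genes on the autosomes and X. They comprised 40 large-subunit genes, 30 small-subunit genes, the 3 genes of the stalk (the RPLP0, RPLP1 and RPLP2 proteins that bind translation factors), and 8 paralogs of narrower or minor use such as RPL3L, RPL22L1 and RPS27L. The rule also admitted 3 symbols that are no separate ribosomal protein: the readthrough genes RPS10-NUDT3 and RPL17-C18orf32, and RPS19BP1, which encodes a protein that binds RPS19.

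TrAEL-seq tags free 3' ends of genomic DNA, and the strand balance of its reads reports which way replication forks cross a stretch of the genome. The cells were PC9, a long-used human non-small cell lung cancer line that depends on mutant EGFR, with or without the EGFR inhibitor osimertinib at 500 nM in DMSO. The groups were 3 libraries of untreated, growing cells, 2 libraries at day 7, 2 at day 14 and 4 at day 28 of continuous drug, and 2 resistant lines, named 5 and 10, each grown from a single-cell clone, kept in 500 nM osimertinib and harvested while growing, with 1 library per line. The day 28 cultures no longer proliferated.

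Ribosomal protein genes are among the most heavily transcribed genes of growing cells and are spread over the genome, mostly as short genes with a start site rich in pyrimidines. That start, the terminal oligopyrimidine tract, lets the mTOR pathway regulate translation of their mRNAs. Replication in human cells often starts in broad zones beside active genes, so that forks leave such genes in both directions; at such a zone the polarity of a fork map rises from negative to positive along the chromosome.

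The tract is found in 41 of the 65 genes with a start sequence, and a few starts are shown to let it be seen. The first 5 genes had a polarity step that fell at day 28 (described further on), RPS24 and RPS18 had the highest and the lowest polarity along the gene, and RPS27L is a paralog that lacks the tract. Each line gives 15 bases before and 15 bases from the RefSeq start (GRCh38.p14), and capitals mark the unbroken run of C and T that opens with a C at the start itself.
RPS12, chr6:132814554-132814583, plus strand: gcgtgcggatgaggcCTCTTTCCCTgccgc
RPS14, chr5:150449725-150449754, minus strand: ccgccccctcccactCTCTCTTTCCggtgt
RPS3, chr11:75399503-75399532, plus strand: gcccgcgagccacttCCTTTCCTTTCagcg
RPL24, chr3:101686704-101686733, minus strand: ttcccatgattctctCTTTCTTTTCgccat
RPL35, chr9:124861943-124861972, minus strand: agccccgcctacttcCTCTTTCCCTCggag
RPS24, chr10:78033848-78033877, plus strand: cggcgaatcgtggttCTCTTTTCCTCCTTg
RPS18, chr6:33272060-33272089, plus strand: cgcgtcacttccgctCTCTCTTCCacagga
RPS27L, chr15:63157463-63157492, minus strand: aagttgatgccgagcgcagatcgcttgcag

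A start at C followed by at least 5 pyrimidines in all was found in 41 of the 65 ribosomal protein genes with a start sequence (63.1%), against 4.60% of 15813 genes. A start at C alone was found in 70.8% of them, against 11.3% of genes. The letters TCT with the C at the start were present in 12 (18.5%), against 2.21% of genes. Of a list of other genes known for such tracts, 15 of 20 had one, whereas 6 of 69 mitochondrial ribosomal protein genes did. At the start used here, RPL6, RPL3 and RPL13, whose step also fell at day 28, lacked the tract. RPS27A lacked it too, while the paralog RPL22L1 had it. These counts describe sequence only: the windows of the polarity map are far longer than a start site, and whether the tract bears on polarity was not tested.

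The genes were short. Their median length was 5025 bp, against 24170.5 bp for all protein-coding genes, and 58 of 84 lay within 1 window of 20 kb and another 24 within 2. They sat on 20 chromosomes, with 12 genes on chromosome 19 (14.3%, against 7.26% of all genes). Annotated snoRNA genes, whose products guide chemical modification of rRNA, lay inside 28 of the 84 (33.3%), against 2.63% of all genes.

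Polarity runs from -100 to 100 percent. A positive value was taken to mean rightward forks; the sources used here do not state the convention, and turning the sign would exchange rises with falls. The mean polarity of a gene is the mean over the windows it overlaps. Its step is the mean of the 3 windows after it minus the mean of the 3 before it, in chromosome order, so that a positive step is a rise. Values were required in all 13 libraries, which left 65 ribosomal protein genes for mean polarity and 56 for the step. Of the 19 genes without a tested polarity, 15 lacked a value in day 7 replicate 1, in which 61.4% of windows had a value (81.8% to 93.4% in the other libraries); RPL11, RPLP0, RPL22, RPL17 and RPL17-C18orf32 are among the 19, the last pair sharing 1 window. RPS10 shares 2 windows with RPS10-NUDT3.

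Read depth is unknown, since the deposited values are ratios without counts. Replicates 3 and 4 titled day 28 carry a treatment label of 7 days and were kept at day 28. The amplitude of a library, its slope on the untreated profile over all windows, ran from 0.807 to 1.03 in untreated libraries, 0.345 to 0.668 at days 7 and 14, and 0.261 to 0.452 at day 28, and was 0.285 in line 5 and 0.641 in line 10. Within the day 28 group, replicate 3 correlated most with the untreated libraries (r 0.765 to 0.829). Whether replicates were grown separately is not given in the labels; the p-values below then rest on the spread of these libraries only, and that spread may be technical.

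In untreated cells the ribosomal protein genes lay mostly where polarity rises. The step was above 0 in 49 of 56 genes (87.5%), against 60.2% of the 12806 genes tested, and its median was 40.4 points, against 11 points for all genes. With limma's moderated test and Benjamini-Hochberg adjustment over all genes, 35 of 56 had a step above 0 (62.5%; background 37.5%) and 3 had one below 0 (5.36%; background 18.9%). The 18 remaining genes did not pass the test. The count of steps other than 0 was 31 to 39 when any 1 library was left out. It was 7, all rises, with each library scaled to the untreated amplitude (7.43% of all genes were then called). Scaling enlarges the values, and so the spread, of libraries with a low amplitude, and the test of untreated steps shares that spread. The lower count therefore does not measure how firm the untreated rises are.

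The steepest rise was at RPL6, a large-subunit protein gene on chr12:112405181-112418835. Its step was 161, 154 and 129 points in the untreated libraries (mean 148 ± 16.9 SD, n = 3; adjusted p = 1.2e-07). RPL37, a large-subunit protein gene on chr5:40825262-40835222, followed with 116.5, 126 and 127 points (adjusted p = 1.0e-06). All 3 libraries of both genes lay far above the all-gene median.

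The small-subunit genes RPS12 and RPS3 came next in order. RPS12 (chr6:132814569-132817564) had steps of 113, 128 and 78.6 points, a wider spread than its neighbours in the ranking (mean 107 ± 25.5 SD; adjusted p = 2.7e-07). RPS3, whose protein sits at the mRNA entry channel and also has roles in DNA repair (chr11:75399518-75422302), had 103, 106 and 98.3 points, the narrowest spread of these 4 (mean 103 ± 3.99 SD; adjusted p = 7.8e-07). The order of RPS12 and RPS3 does not exceed the spread of RPS12. RPL14, RPS14 (a gene of the 5q deletion in myelodysplastic syndrome) and RPL5 had means of 100.4, 97.8 and 95.3 points.

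The lowest steps were found at 2 large-subunit genes, a readthrough gene and a paralog. RPL31 (chr2:101002289-101019724), a large-subunit protein gene, had steps of -67.1, -43.0 and -66.2 points (mean -58.8 ± 13.7 SD; adjusted p = 4.7e-05). RPL4 had -19.4, -54.6 and -55.5 points (adjusted p = 0.0060). The readthrough gene RPS10-NUDT3 had -40.7, -46.0 and -34.8 points (adjusted p = 0.0048), whereas RPS10, which shares its start but ends far earlier, had a step of 37.4 points. The paralog RPL26L1 had -31.2, -22.9 and -25.9 points and did not pass the test (adjusted p = 0.059). Only RPL31, RPL4 and RPS10-NUDT3 passed below 0 among the 56.

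**Figure D1:**
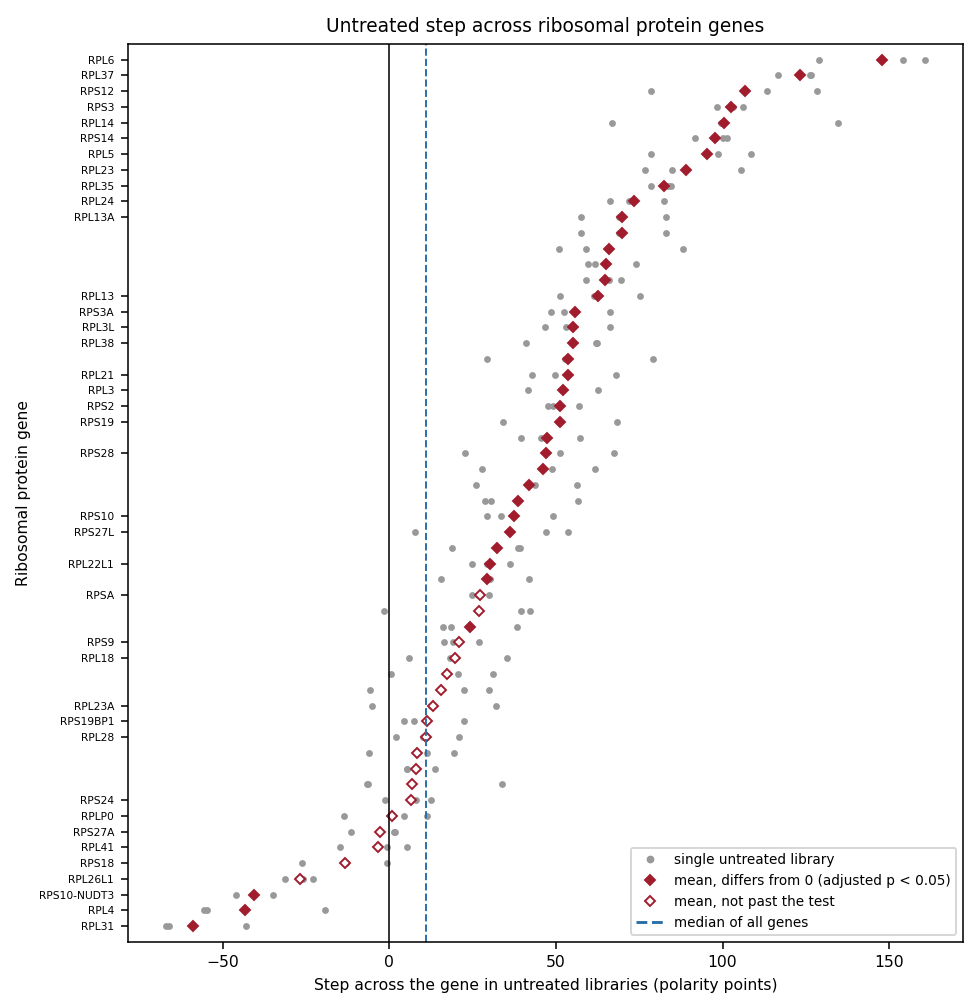
Step in polarity points (x axis) for each of the 56 ribosomal protein genes tested (y axis, ordered by mean, with the genes described in the text labelled); grey dots are the 3 untreated libraries, diamonds their mean (filled where the mean differs from 0 at an adjusted p below 0.05), the dashed line the median of all genes. Most diamonds lie to the right of 0, from RPL6 at 148 points down to RPL31 at -58.8 points.

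Other genes of this family that are often named lay between these ends. RPS19, the gene most often mutated in Diamond-Blackfan anaemia, had a step of 51.1 ± 17.2 points (SD, n = 3; adjusted p = 0.00051), and RPL23, which binds MDM2 in ribosomal stress, had 89.0 ± 14.9 points (adjusted p = 4.8e-06). RPL13A had 69.8 ± 12.7 points. RPL3, which forms part of the peptidyl transferase region, had 52.1 ± 10.5 points, and its muscle paralog RPL3L had 55.2 ± 9.99 points. The paralogs RPS27L and RPL22L1 had 36.1 ± 24.9 and 30.2 ± 5.66 points and passed the test (adjusted p = 0.012 and 0.025). RPLP0 (0.744 points), RPL41 (-3.40 points) and RPSA (27.1 points) did not pass the test.

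Both subunits showed the pattern. The median step was 49.7 points over 26 large-subunit genes and 47.1 points over 21 small-subunit genes, with 23 and 19 of them above 0. Over the 48 tested genes of the subunits and stalk, without paralogs and readthrough genes, 30 rose (62.5%) and 2 fell.

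Short genes in general lie a little more often in rises. Of the 7185 genes within 1 or 2 windows, 39.8% had a called rise and 13.8% a called fall, with a median of 14.6 points; of such genes with at least 4 neighbours within 100 kb, the median of the ribosomal protein genes, 39.9% had a called rise. On chromosome 19 the share was 32.5% of all genes, 6 of 9 ribosomal protein genes there, and 29 of 47 elsewhere. Ribosomal protein genes that hold a snoRNA rose in 16 of 21 cases and those that hold none in 19 of 35, whereas 41.9% of all genes that hold a snoRNA rose. These background groups were added after the data were seen.

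Other gene lists of ribosome production gave the following counts. Of 58 mitochondrial ribosomal protein genes 31 rose and 8 fell (median step 32.0 points), of 25 ribosome assembly genes 10 rose and 5 fell (13.8 points), and of 21 other genes with a terminal oligopyrimidine tract 11 rose and 1 fell (33.3 points). The differences between these lists were not tested.

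Zones of unbroken rise by at least 40 points in the untreated profile gave a view over a longer range, though from the same libraries. Of the 65 tested genes, 38 overlapped such an initiation zone (58.5%, against 48.3% of 17058 genes) and 8 overlapped a zone of fall (12.3%, against 30.3%). The median distance to the middle of the nearest initiation zone was 53.9 kb, against 129 kb for all genes. Of other lists, 78.6% of 28 other genes with a terminal oligopyrimidine tract, 67.6% of 37 ribosome assembly genes and 57.4% of 68 mitochondrial ribosomal protein genes overlapped an initiation zone; differences between lists were not tested. RPL6, RPL37, RPS14, RPS3 and RPS12 each overlapped an initiation zone, with 7.99, 19.8, 23.8, 30.9 and 36.1 kb to its middle. RPL31 overlapped a zone of fall, with 21.0 kb to its middle, and lay 231 kb from the middle of the nearest initiation zone.

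Seen along each gene from its start, in the 65 genes with a strand and start sequence, the median untreated polarity was -24.4 percent at 80 kb upstream, -0.878 percent at the start window, 32.0 percent at 40 kb downstream and 38.3 percent at 80 kb downstream. Over all genes the same positions had -11.9, 9.12, 10.9 and 11.2 percent. At day 28 the ribosomal protein genes had -3.33 percent at 80 kb upstream and 8.95 percent at 80 kb downstream, and in the resistant lines -7.37 and 15.8 percent. The median was below 0 at 80 kb upstream and above 0 at 80 kb downstream in all 5 groups, with the largest rise in untreated cells. The same held over all genes, with -3.63 and 3.43 percent at day 28 and -5.95 and 4.98 percent in the resistant lines.

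**Figure D2:**
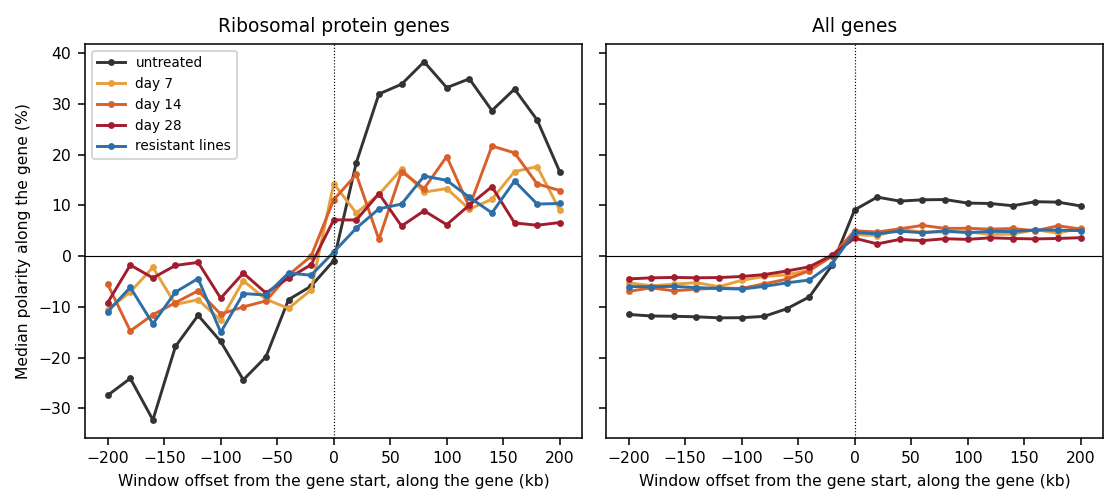
Median polarity along the gene (y axis, percent, positive where the assigned fork direction follows transcription) in 20 kb windows by offset from the gene start (x axis, kb), for 65 ribosomal protein genes (left) and all genes (right); each line is the mean of a group's libraries. The untreated line of the ribosomal protein genes goes from -24.4 percent at 80 kb upstream to 38.3 percent at 80 kb downstream.

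The polarity over the genes themselves had no common sign. In untreated cells 36 of 65 had a mean polarity other than 0 (55.4%; background 65.8%), 21 above it and 15 below it (background 32.9% each way). With each library scaled to the untreated amplitude, which enlarges the shared spread as for the step, 6 of 65 did, and 22.9% of all genes. The median size of the unscaled untreated polarity was 34.1 percent, against 33.8 percent for all genes. Its median SE was 10.7, against 9.15. Relative to the strand of the gene, 15 of 48 were called along transcription (background 36.3%) and 11 against it (background 30%). In the untreated mean 27 of 48 pointed along the gene, and 21 did so with the sign of polarity turned.

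Genes with the highest polarity along transcription were RPS24, RPS27A, RPSA, RPS3A, RPL28 and RPS29. RPS24, another Diamond-Blackfan anaemia gene, had 81.7, 96.2 and 86.0 percent in the untreated libraries, and RPS27A, which encodes a fusion of ubiquitin with a small-subunit protein, had 65.4, 67.3 and 70.4 percent. The lowest were RPS18, RPS19, RPL6, RPL13, RPL35 and RPL3, which forks crossed against transcription under the assigned sign. RPS18 is on the plus strand and had -85.0, -83.8 and -79.0 percent. RPL6 is on the minus strand and had 76.9, 66.7 and 43.8 percent.

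Several genes named often had polarities near 0 or widely spread. RPS6, whose protein is phosphorylated downstream of mTOR, had 1.10, -55.0 and 6.59 percent, RPS27 had -2.86, 48.4 and 14.8 percent, and RPL19 had -26.1, -17.6 and 11.5 percent; none of the 3 passed the test. The stalk gene RPLP2 had 33.3, 63.6 and 30.9 percent (adjusted p = 0.035).

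The share of genes along transcription varied with the library. It was 54.2%, 54.2% and 58.3% of 48 genes in the untreated libraries, 66.7% and 77.1% at day 7, and 70.8% and 66.7% at day 14. At day 28 it was 70.8%, 75%, 56.2% and 45.8% in replicates 1 to 4, and it was 58.3% in line 5 and 54.2% in line 10. Over all 13656 genes with a strand it stayed between 51.0% and 54.3%. The libraries at days 7 and 14 lay above all untreated libraries, while those at day 28 spanned the untreated values, the 2 with the conflicting label being the lowest.

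Against 0, 9 genes were called along and 1 against transcription at day 7 (background 14% and 9.8%), 12 and 3 at day 14 (19.1% and 14.3%), 6 and 1 at day 28 (10.2% and 7.58%), and 1 and 1 in the resistant lines (5.65% and 4.28%). No test of the shift itself was made over the genes.

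**Figure D3:**
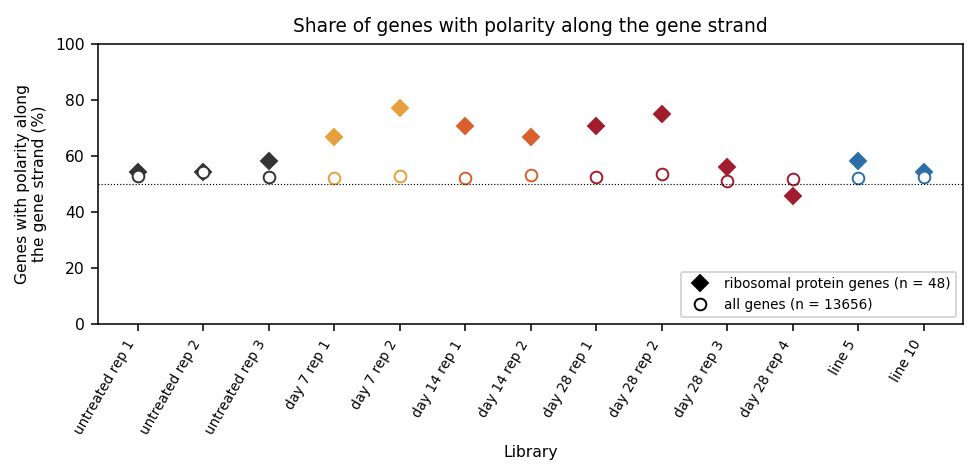
Share of genes whose polarity follows the gene strand (y axis, percent) in each of the 13 libraries (x axis), for 48 ribosomal protein genes (diamonds) and 13656 genes (circles); the dotted line marks equal shares along and against the strand. The circles stay between 51.0% and 54.3%, and the diamonds at days 7 and 14 lie between 66.7% and 77.1%.

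The comparisons with drug ask whether polarity at these genes differed over the course of treatment and in resistant lines. They all share the untreated libraries. At day 7, 4 of 65 genes changed in mean polarity (6.15%; background 7.7%), and 5 of 56 changed in step (8.93%; background 8.54%), shares near those of all genes.

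RPLP1, an acidic protein of the stalk, had -13.3, 3.45 and -26.8 percent untreated and 80.0 and 48.1 percent at day 7 (difference 76.3 ± 15.6 SE; limma adjusted p = 0.029). RPS9 had 17.4, 23.5 and 35.9 percent untreated and 100.0 and 73.3 percent at day 7 (difference 61.0 ± 17.3 SE; adjusted p = 0.049). RPL3 had 51.7, 46.2 and 35.7 percent untreated and -10.0 and -20.0 percent at day 7 (difference -59.5 ± 12.8 SE; adjusted p = 0.030). RPL6 went from the values above to 20.0 and -7.69 percent (adjusted p = 0.043). All 4 of these moves were toward the direction of transcription and 0 away from it, where of all 13656 genes with a strand 514 were called toward it (background 3.76%) and 551 away from it (background 4.03%). RPLP1, RPL3 and RPL6 moved against their untreated sign, as did 1306 of the 1314 genes called in all, and RPS9 moved in the direction of its own.

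Steps that fell at day 7 were those of RPL6, RPL14, RPS12 and RPL3L, while over all genes 758 steps fell and 335 rose. The 5 called steps moved against their untreated sign, as did 1086 of the 1093 called over all genes. RPL6 had 35.2 and 46.4 points (difference -107 ± 25.0 SE; adjusted p = 0.013) and RPS12 had 26.5 and 14.2 points (difference -86.4 ± 20.5 SE; adjusted p = 0.013). RPS10-NUDT3 rose, to 70.0 and 17.6 points (adjusted p = 0.010). These calls rest on few libraries, and the matching shares of all genes are not given for the counts that follow. Without day 7 replicate 1, no polarity and 1 step was called; without any of the untreated replicates 1, 2 and 3 in turn there were 0 polarity calls, and without untreated replicates 1 and 2 there were 1 and 0 step calls; without day 28 replicate 2 there were 2 polarity calls; without day 14 replicate 1 or 2 there were 7 polarity calls each.

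At day 14, 2 of 65 genes changed in mean polarity (3.08%; background 3.1%), both lower; of all genes called, 270 were lower and 259 higher. RPL3 had -28.9 and -23.1 percent (difference -70.5 ± 12.8 SE; adjusted p = 0.021). RPS2 had -4.35, 22.2 and -4.40 percent untreated and -54.5 and -36.8 percent at day 14 (adjusted p = 0.040). Of 56 genes, 2 changed in step (3.57%, background 4.86%), both lower, where over all genes 420 steps were lower and 203 higher. Both moved against their untreated sign, as did 619 of the 623 called over all genes. RPS12 had -10.8 and 33.2 points (difference -95.6 ± 20.5 SE; adjusted p = 0.011) and RPS28 had 51.3, 67.4 and 22.7 points untreated and -32.4 and -20.3 points at day 14 (adjusted p = 0.024).

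The day 14 counts of ribosomal protein genes moved with single libraries, and the matching shares of all genes are not given. Polarity calls were 0 without untreated replicate 1 or 2, 1 without untreated replicate 3, day 14 replicate 1, day 28 replicate 2 or 3, line 5 or line 10, 3 without day 14 replicate 2, and 4 without either day 7 library. Step calls were 0 without untreated replicate 1 or 2 or day 14 replicate 1, and 6 without day 14 replicate 2.

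At day 28 the untreated pattern was flatter. The median step fell from 40.4 points to 14.1 points, and over all genes from 11 to 4.01 points; regressed on the untreated steps, the day 28 steps of ribosomal protein genes had a slope of 34.1% and those of all genes 29.1%. The step changed in 13 of 56 genes (23.2%; background 23.4%). All 13 fell and 0 rose, where 16.5% of all genes had a step that fell and 6.96% one that rose. All 13 moved against their untreated sign, as did all 3003 genes called. The untreated step was called above 0 in 35 of the 56 genes and below 0 in 3, so falls were the likelier direction. Mean polarity changed in 16 of 65 (24.6%; background 33.5%). The share of steps called was that of all genes, and the share of polarities called was below it. The median size of the polarity difference was not smaller (24.6 percent, against 23.9 percent for all genes). Its median SE was larger (14.1, against 12.1).

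Among the genes whose step fell were RPL6, RPL37, RPS12, RPS14, RPL5, RPL14, RPS3, RPL3, RPL13, RPL24, RPL35 and RPL38. RPL6 had -4.88, 16.8, 62.6 and 74.6 points in replicates 1 to 4, all below its untreated range (difference -111 ± 20.9 SE; adjusted p = 0.0022). RPS12 had 34.5, 24.8, 39.0 and 16.6 points (difference -78.0 ± 17.1 SE; adjusted p = 0.0033). RPS14 had 101.4, 100.2 and 91.7 points untreated and 3.84, 29.7, 43.7 and 11.3 points at day 28 (difference -75.7 ± 16.7 SE; adjusted p = 0.0033).

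RPL37 had 10.7, 2.35, 63.0 and 42.8 points at day 28 (difference -93.4 ± 22.3 SE; adjusted p = 0.0048). RPL5, whose protein restrains MDM2 together with RPL11 and the 5S rRNA, had 98.7, 109 and 78.6 points untreated and 28.1, 46.3, 20.2 and 12.6 points at day 28 (difference -68.5 ± 18.5 SE; adjusted p = 0.010). RPL14 had 99.5, 135 and 66.9 points untreated and 32.6, 21.1, 38.3 and 37.7 points at day 28 (adjusted p = 0.013). In all 6 genes the untreated and day 28 libraries did not overlap, but they were picked as the called genes with the largest differences. The share of all genes without overlap was not counted, so the gap adds no support.

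**Figure D4:**
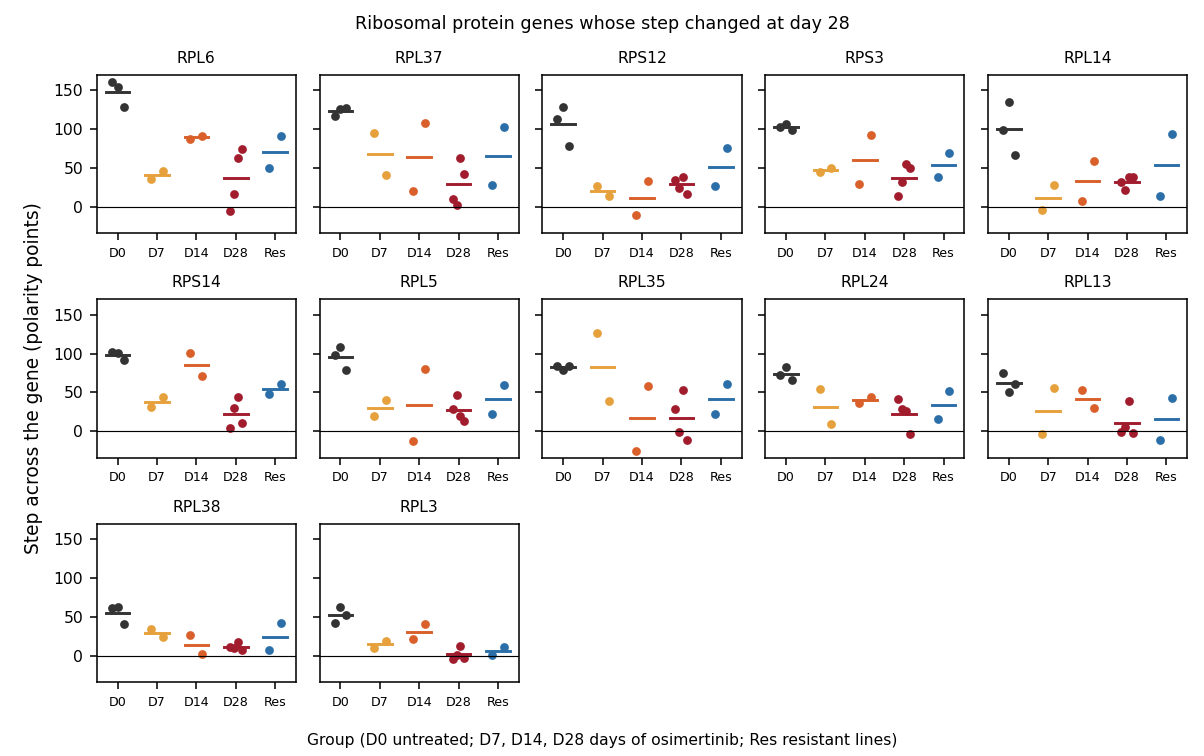
Step in polarity points (y axis, shared by all panels) in each library (dots) and group (x axis; bars are group means) for 12 of the 13 ribosomal protein genes whose step fell at day 28. In each panel all untreated dots lie above all day 28 dots, as for RPL6 with a mean of 148 points untreated and 37.3 points at day 28. These genes were chosen by the test of this difference, so the gap adds no support.

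Mean polarity was higher at day 28 for RPL13, RPS18, RPL23A and RPS15A, all negative untreated. RPS18 had -29.4, -3.23, -35.4 and 9.09 percent at day 28 against an untreated range of -85.0 to -79.0 percent (difference 67.9 ± 13.2 SE; adjusted p = 0.0095). RPL13 had -78.9, -36.2 and -67.5 percent untreated and 61.5, 6.67, -33.3 and 0 percent at day 28 (difference 69.6 ± 19 SE; adjusted p = 0.017). RPL23A went from a mean of -55.7 percent to 11.4 percent (adjusted p = 0.010) and RPS15A from -78.0 to -23.8 percent (adjusted p = 0.023).

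Mean polarity was lower for 12 genes, all positive untreated, among them RPS24, RPS3A, RPL18, RPL3, RPL35, RPSA, RPS27A, RPL28, RPL21, RPL37 and RPL5. RPS24 had 17.8, 18.9, 40.3 and 11.1 percent at day 28 (difference -65.9 ± 13.1 SE; adjusted p = 0.0095). RPS3A had 12.8, 8.33, 25.2 and -31.0 percent (adjusted p = 0.017), and RPL3 had -31.7, -21.8, 13.1 and 3.70 percent (adjusted p = 0.0095).

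All 16 moved against their untreated sign, as did all 5708 genes called in the whole table. Of those with a strand, 5 moved along and 6 against transcription (background 14.7% and 19.2%). For RPL18 the move went past 0, from 26.1, 20.0 and 25.2 percent to -60.0, -28.6, 3.17 and -37.1 percent (adjusted p = 0.016), so its size at day 28 was not smaller than before. RPL35 went from a mean of 54.9 percent to 3.64 percent (adjusted p = 0.013) and RPSA, the laminin receptor and small-subunit protein, from 65.1 to 22.3 percent (adjusted p = 0.027).

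**Figure D5:**
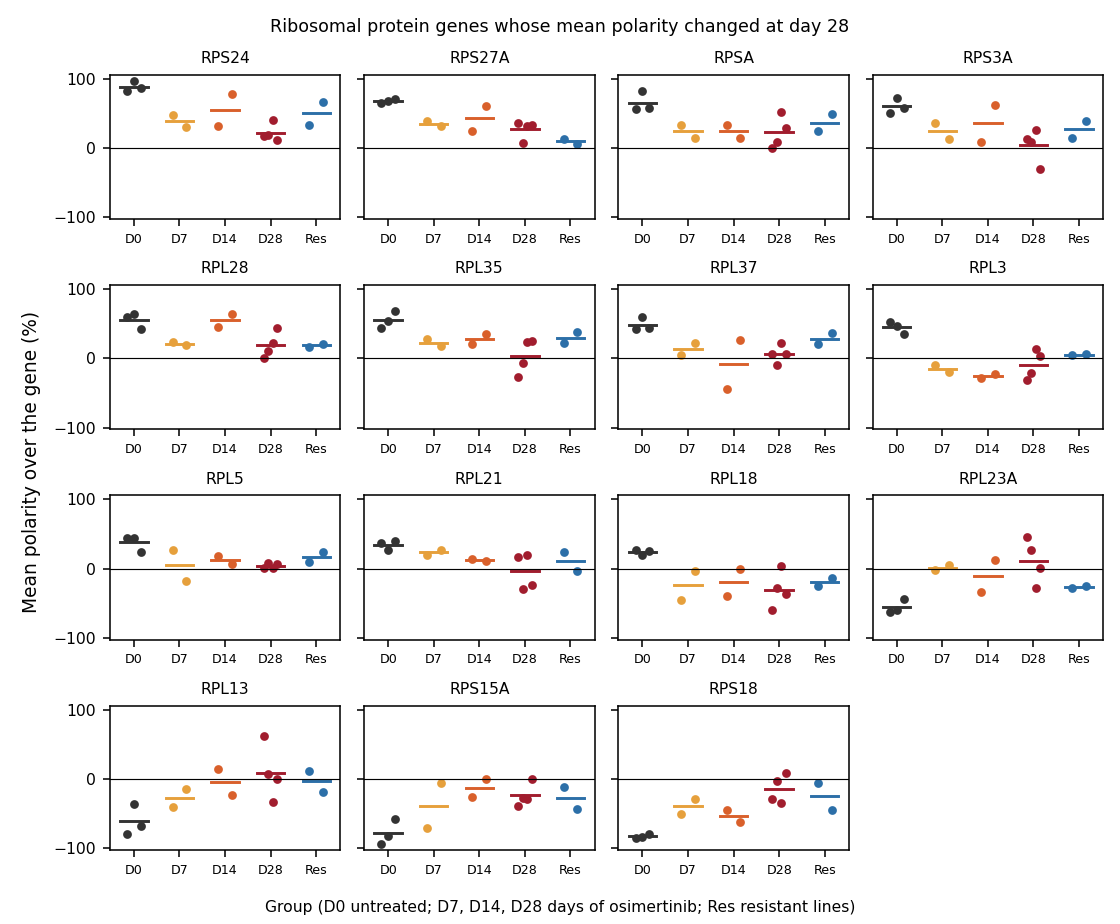
Mean polarity in percent (y axis, shared by all panels) in each library (dots) and group (x axis; bars are group means) for 15 of the 16 ribosomal protein genes whose mean polarity changed at day 28. Positive untreated genes moved down and negative ones moved up, with RPS24 from 88.0 to 22 percent and RPS18 from -82.6 to -14.7 percent.

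Without untreated replicate 1 or 2 the day 28 calls fell to 7 and 5 for polarity and to 7 and 4 for the step. Without day 28 replicate 4, or replicates 3 and 4 together, they fell to 8 for the step. The shares of all genes in these settings are not given, so the falls cannot be read as particular to ribosomal protein genes. With each library's values scaled to the untreated amplitude, no ribosomal protein gene was called at day 7, 14 or 28 in either measure, as was so for all genes. Scaling also enlarged the spread of libraries with a low amplitude, so the loss of calls cannot tell a smaller difference from a larger spread. The day 28 differences kept their sign in 15 of the 16 polarities and 12 of the 13 steps, with a median size of 43.1 percent (53.9 percent unscaled) and 37.9 points (65.2 points unscaled). Polarity differences became larger for RPL3 (-82.0 percent), RPL13 (104 percent) and RPL18 (-126 percent), and the step differences of RPL6 and RPL37 were -52.5 ± 42.9 and -50.6 ± 36.2 SE points. The exceptions in sign were the step of RPS3 at 0.040 points and the polarity of RPS27A at 7.58 percent. Amplitude moves with these results in every drug group.

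In the resistant lines no ribosomal protein gene passed the test against untreated cells, with limma, in mean polarity (13 of 65 at an unadjusted p below 0.05, against 23.8% of all genes) or in step (12 of 56, against 14.9%), and no gene of the whole table did (background 0%). With array weights, which weight libraries by their spread, 7 of 65 and 6 of 56 were called, and 10.3% and 10.9% of all genes. Both lines got the same weight (1.16 for polarity and 1.48 for the step), since the deviations of 2 libraries in a group mirror each other. The setting therefore does not weigh line 5 against line 10. The design has 2 lines of 1 library each. The lines differed from each other in size: the median step was 14.8 points in line 5 and 28.7 points in line 10, and RPL6 had 49.7 and 90.7 points.

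Against day 28, no ribosomal protein gene was called in the resistant lines in mean polarity (2 at an unadjusted p below 0.05) or in step (0 at that level). RPS12 had 26.7 and 75.8 points in lines 5 and 10, within and above its day 28 range, with a difference of 22.5 ± 19.4 SE points (adjusted p = 1.0). A p of this size does not show that the lines and the day 28 cells were alike.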

How the data were processed

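Strand polarity from TrAEL-seq was analysed in 13 libraries. The deposited values are scores from -100 to 100 in windows of 20 kb every 10 kb, which the authors had made from mapped reads before deposit; the submitters' processing notes list Bowtie2 2.4.1 and Trim Galore 0.6.5, with GRCm38 beside GRCh38 as genomes. No source used here gives the formula, sign convention, read minimum or counts, so depth is unknown and no counting interval is given. Gene positions, strands and start sequences came from RefSeq (GRCh38.p14), with a strand for 65 of the 84 genes.

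Of the 308844 windows, the 151538 non-overlapping ones on chromosomes 1 to 22 and X were used. Gene polarity and step were computed for all genes with a value in every library (17058 and 12806) and fitted over all 13 libraries with limma 3.58.1 in R 4.3.3 (lmFit, eBayes with trend), with Benjamini-Hochberg adjustment over all genes at 0.05. In simulated day 28 data, 57 of 100 polarity changes of 60 points and 1 of 100 of 30 points were recovered. For the step 25 and 0 of 100 were recovered, with 0 false calls in either measure. Only 100 genes of each size were changed there, whereas 5708 polarities and 3003 steps were called in the data. The adjustment was therefore stricter in the simulation, and its recovery does not give the power of the day 28 comparison. Zones were found on the untreated mean smoothed over 4 windows. Descriptions used Python 3.11.15.

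The members and gene lists were chosen with earlier results of these data known. Genes named with values are a fixed list of 20 symbols, the 6 highest and 6 lowest by untreated polarity along the gene, the 4 highest and 4 lowest by step, up to 6 called genes a direction in each comparison, and genes sharing a window; others were named after their values were seen. Some genes that enter the counts are not reported here by name. Alternatives covered library weights, the 2 libraries with conflicting labels, windows, completeness, amplitude, a replicate block and each library left out.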

Additional observations from a re-analysis of the deposited data

Results flagged for a closer look

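In groups of 4 libraries, a library was looked at again where its gap to the nearest other exceeded 0.829 of the group's range. This was done for 75 sets of day 28 values, and chance flags about 1 in 20. The mean polarity of RPS27A was 6.38 percent in day 28 replicate 2, far below the other 3 libraries. RPS2 had -3.45 percent in replicate 1, although all 4 values lay within a few points of 0. RPL13A had -46.6 percent in replicate 3, while the other 3 libraries were positive. The step of RPS27A was -23.2 points in replicate 4. The step of RPS3A was -9.64 points in replicate 1, against positive values in the others. No cause of these values was tested.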

How the results depend on the processing

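The counts below are ribosomal protein genes called by limma. The shares of all genes called under each setting are not given beside them, so a move cannot be read as particular to ribosomal protein genes. The cause of each move was not tested. Scaling each library to the untreated amplitude left 0 calls at days 7, 14 and 28 in polarity and in step. It left 6 polarities and 7 steps other than 0 in untreated cells. It also enlarged the spread shared by all tests, so these losses do not measure how firm the unscaled calls are. The day 28 polarity difference of RPS27A turned to 7.58 percent and the step difference of RPS3 to 0.040 points. With array weights there were 0 polarity calls at days 7 and 14 and 7 in the resistant lines, and 3, 1, 23 and 6 step calls at days 7, 14 and 28 and in the resistant lines. Without day 28 replicates 3 and 4 together, polarity at day 14 gave 1 call and the step at day 28 gave 8; placed at day 7, they gave 13 polarity and 11 step calls at day 7 and 1 polarity call at day 14. All windows every 10 kb gave 5 step calls at day 14 and 27 at day 28, and a minimum of 1 value per group gave 4 step calls at day 14. With 2 windows on each side the step gave 2, 0 and 8 calls at days 7, 14 and 28, and with 5 windows 14, 10 and 28, and 2 in the resistant lines; with 5 windows the untreated step was 19.7 points for RPS27A and -20.4 points for RPL23A, each of the other sign than with 3.

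Leaving out 1 library at a time gave 0 to 7, 0 to 4 and 5 to 22 polarity calls and 0 to 7, 0 to 6 and 4 to 18 step calls at days 7, 14 and 28, and 0 in the resistant lines. Untreated polarity other than 0 ranged from 29 to 41 and untreated step from 31 to 39. With the replicate block, polarity gave 0, 0 and 9 calls and the step 4, 1 and 8 at days 7, 14 and 28. Same-numbered libraries showed no clear joint deviation (r from -0.114 to 0.101 over 13 pairs, and -0.21 to 0.21 over 31 other pairs). In groups of 2 libraries the deviations mirror each other, so these values cannot exclude a pairing. Depth is unknown, and day 7 replicate 1 lacked a step value for 28 of the 84 genes.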
